A study of Homo sapiens with 27 samples.

Results

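The genes described here encode 10 cell adhesion molecules of the immunoglobulin superfamily: MCAM, ALCAM, ICAM1, VCAM1, NCAM1, L1CAM, CADM1, CADM4, THY1 and BCAM. They were picked by gene symbol, and the deposited values of their annotated transcripts were summed to the gene with GENCODE release 29, which gave 10 of 34584 genes measured. Molecules of this family carry immunoglobulin domains outside the cell and bind either the same molecule on a neighbouring cell or a different partner such as an integrin or a laminin. Most span the membrane and reach the cytoskeleton through their tails, while others are held by a glycosylphosphatidylinositol (GPI) lipid. Melanoma cells, neurons, fibroblasts and inflamed endothelium are textbook settings for several of them.

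The data came from RNA-seq of 9 established human cell lines (27 libraries, 3 for each line). The lines were the melanoma lines SK-Mel 24 and SK-Mel 28, the osteosarcoma line U2-OS, the glioblastoma line U251, the dermal fibroblast line BJ, the lung adenocarcinoma line A549, the colon line Caco2, the liver tumour line HepG2 and the bladder tumour line RT4. No line was treated, and each tissue other than skin was represented by 1 line. SK-Mel 24 was grown in EMEM with 15% serum and the others in 10% serum, with EMEM for SK-Mel 28, U251, Caco2 and HepG2, DMEM for A549 and BJ, and McCoy's medium for U2-OS and RT4, all with 1% streptomycin, so line and medium cannot be told apart. The libraries of a line are described as biological replicates, without saying how far the cultures were separate, so the p-values measure the spread between these libraries.

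The libraries held between 15597117 and 32583547 estimated counts. Mitochondrial transcripts took 71.1%, 33.8% and 32.6% of the counts in the 3 HepG2 libraries and between 0.928% and 5.72% elsewhere, which lowers every other HepG2 value given in TPM (a transcript level corrected for length and scaled to a fixed library total). Lineage markers were read against the labels. At least 1 TPM was reached by 6 of 6 hepatocyte markers in HepG2, 5 of 5 enterocyte markers in Caco2, 5 of 6 astroglial markers in U251 and 6 of 6 melanocyte markers in SK-Mel 28. Some of these counts were shared with other lines. All hepatocyte markers also reached 1 TPM in Caco2, where ALB was at 3.15 TPM against 7110 in HepG2 and HNF4A at 54.5 against 15.1. All astroglial markers but AQP4 also reached it in SK-Mel 24, where S100B was at 7822 TPM against 16.1 in U251. SK-Mel 24 reached 1 TPM with 4 of 6 melanocyte markers, of which only SOX10, at 252 TPM, set it apart from the lines of other tissues. MITF was at 11.8 TPM there against 17.1 in A549, PMEL at 3.10 against 8.24 in Caco2 and MLANA at 1.08 against 1.30 in U251. BJ carries the tissue label epithelial, yet 6 of 6 fibroblast markers were present. Its epithelial markers were mixed. EPCAM was at 0.668 ± 0.0385 TPM (SD, n = 3) and CDH1, ESRP1 and GRHL2 were lower, while KRT8 was at 34.0 and KRT18 at 750 TPM. RT4 carries the label kidney, yet 6 of 6 urothelial and 0 of 5 kidney tubule markers reached 1 TPM. A549 had 0 of 5 lung markers and U2-OS 2 of 5 osteoblast markers at that level. In bulk RNA a lower level can come from fewer expressing cells or from less RNA per cell, which cannot be told apart.

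Several of these genes make forms that differ by a single coding exon, and those exons are shown first because their shares are compared between lines further on. Capitals mark the exon, and lower case marks the neighbouring coding bases of the same transcript in GENCODE release 29. The exons lie in GRCh38 at chr11:113221296-113221325 (NCAM1, plus strand), chrX:153873228-153873242 and chrX:153863368-153863379 (L1CAM, minus strand), chr3:105552144-105552182 (ALCAM, plus strand) and chr19:44820705-44820822 (BCAM, plus strand).
NCAM1 30-base exon: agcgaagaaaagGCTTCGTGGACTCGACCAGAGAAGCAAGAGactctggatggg
L1CAM 15-base exon: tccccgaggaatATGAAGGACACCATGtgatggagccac
L1CAM 12-base exon: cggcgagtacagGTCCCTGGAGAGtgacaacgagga
ALCAM 39-base exon: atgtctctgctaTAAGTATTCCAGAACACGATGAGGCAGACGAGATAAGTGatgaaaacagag
BCAM tail exon: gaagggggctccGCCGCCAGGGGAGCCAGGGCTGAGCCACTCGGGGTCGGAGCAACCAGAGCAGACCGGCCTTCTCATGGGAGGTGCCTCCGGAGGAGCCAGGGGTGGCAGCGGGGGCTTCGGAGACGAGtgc

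All but the BCAM exon have a length that divides by 3 and so keep the reading frame. The NCAM1 exon is the one known as VASE, which adds residues to the fourth immunoglobulin domain. Both L1CAM exons are known from the neuronal form of the protein and are skipped in most other cells. The BCAM exon belongs to the long cytoplasmic tail of the Lutheran form.

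The adhesion genes divided the lines by which gene dominated. Summed over the 10 genes, the level was 1811 ± 78.1 TPM in BJ (SD, n = 3 here and for the other lines). The melanoma lines followed, SK-Mel 24 at 1315 ± 109 and SK-Mel 28 at 1255 ± 109.8. U2-OS was at 814 ± 72.6, U251 at 469.5 ± 36.1, A549 at 219.7 ± 13.4 and Caco2 at 165 ± 53.7. HepG2 was at 96.8 ± 44.99 and RT4 at 34.0 ± 3.34. With mitochondrial transcripts left out of the total, HepG2 moved to 214 ± 18.1 TPM, above Caco2 (172 ± 54.3) and next to A549 (228 ± 15.1), and RT4 stayed lowest at 37.2 ± 4.18. THY1 made up 82.1% of that sum in BJ and 29.9% in U2-OS. In the melanoma lines the leader was MCAM, with 36.7% in SK-Mel 24 and 64.8% in SK-Mel 28. ALCAM led in A549 with 60.7% and in U251 with 36.02%, CADM1 led in Caco2 with 42.6%, and BCAM led in HepG2 with 59.8% and in RT4 with 41.1%. U2-OS and SK-Mel 24 each had 8 of the 10 genes at 10 TPM or more, against 2 in HepG2 and 2 in RT4, or 4 in HepG2 and 2 in RT4 without mitochondrial transcripts.

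Of the 10 genes, 9 had enough counts for the test in edgeR, and VCAM1 did not. All 9 differed among the 9 lines at a Benjamini-Hochberg adjusted p under 0.05 in edgeR's quasi-likelihood F test, where 98.3% of the 17220 genes tested did so, so that count is near the background. Over the 36 pairs of lines, 84.3% of the 324 tests of a gene in a pair passed, where 58.8% of all such tests did. MCAM differed in 34 of 36 pairs and BCAM in 26, the extremes of the 9. Of the 9, 2 were enriched in a line, meaning at least 4-fold above each other line with an adjusted p under 0.05: THY1 in BJ and BCAM in HepG2. The background for that call was 14.7%.

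**Figure D1:**
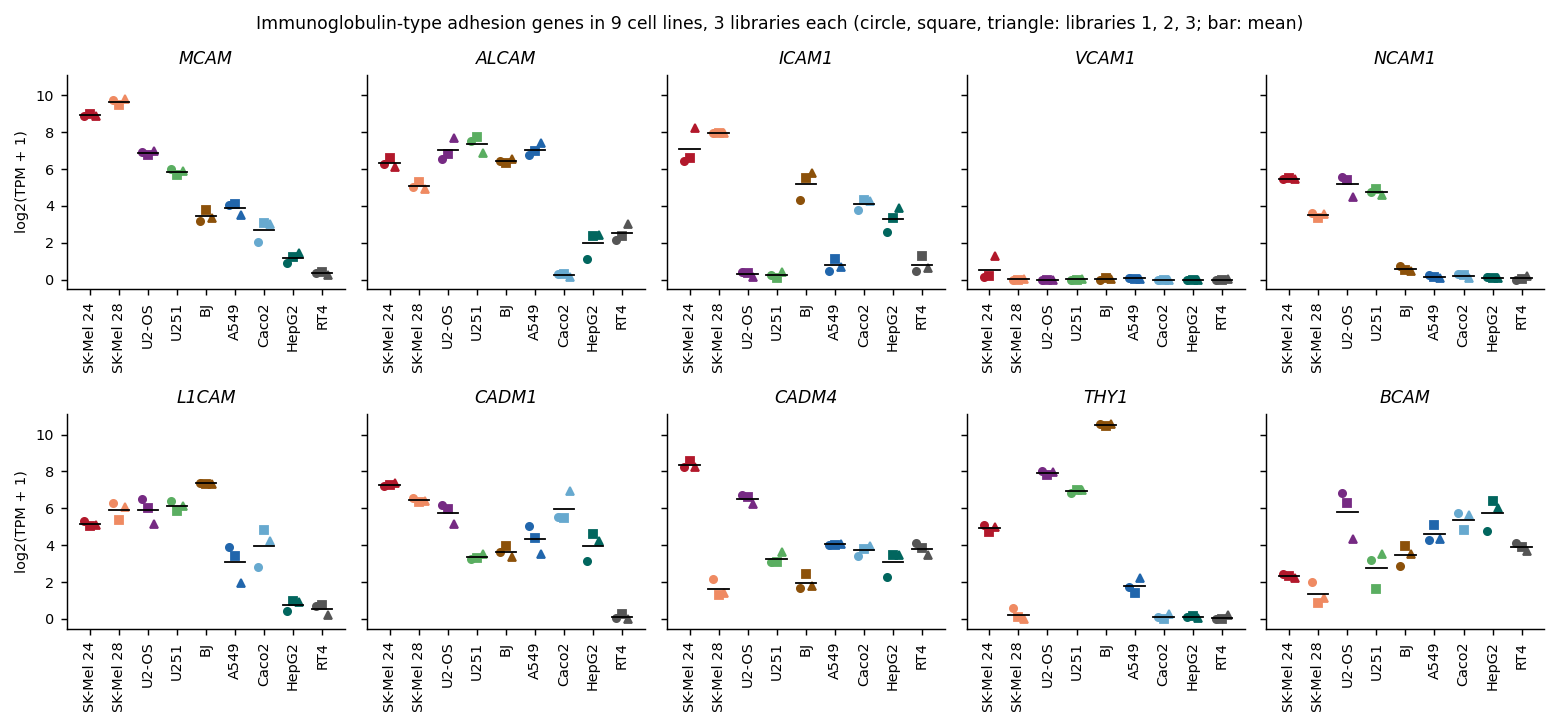
Level of each gene as log2(TPM + 1) in each library (vertical axis, linear) by cell line (horizontal axis); symbols are the 3 libraries of a line and the bar is their mean. MCAM falls in steps from the melanoma lines, THY1 peaks in BJ, CADM4 differs widely between SK-Mel 24 and SK-Mel 28, and VCAM1 lies near 0 in all lines.

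MCAM, also called CD146 or MUC18, was first described on melanoma cells and marks their spread, and it was the leading member in both melanoma lines. SK-Mel 28 had 854, 711 and 875 TPM of it, against 469, 507 and 470 TPM in SK-Mel 24. U2-OS had 123, 106 and 124 TPM, and U251 had 64.2, 49.5 and 58.7 TPM. These 4 lines did not overlap one another, and each step between neighbours passed the edgeR test, with log2 fold changes of 0.88 ± 0.23 (SE, adjusted p = 0.00234) from SK-Mel 24 to SK-Mel 28, 2.20 ± 0.24 (adjusted p = 2.22e-08) from U2-OS to SK-Mel 24 and 0.89 ± 0.23 from U251 to U2-OS. A549 and BJ, at means of 13.9 and 9.96 TPM, did not pass as different from each other, and RT4 was lowest at 0.270, 0.336 and 0.187 TPM. A single transcript of 646 codons carried 92.9% ± 3.52 of the MCAM level in SK-Mel 28. The gene lies on the minus strand of chromosome 11 (GRCh38, 119308529 to 119321521) and overlaps CBL on the other strand, which was at no more than 12.4 TPM in any line.

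ALCAM, or CD166, binds itself and the lymphocyte receptor CD6, and it was at 67.9 TPM or more in every library of 5 lines. It was at 182, 209.2 and 116 TPM in U251, at 106, 126 and 168 TPM in A549 and at 94.2, 109.7 and 203.3 TPM in U2-OS. BJ had 85.8, 79.7 and 92.3 TPM and SK-Mel 24 had 76.1, 95.6 and 67.9 TPM. No neighbouring pair in the order U251, A549, BJ, U2-OS, SK-Mel 24 passed the test, the widest gap being 0.65 ± 0.32 in log2 between U2-OS and SK-Mel 24 (edgeR adjusted p = 0.0873). SK-Mel 28 came next at 31.3, 38.1 and 29.6 TPM, below every SK-Mel 24 library. Caco2 stood apart at 0.238, 0.249 and 0.127 TPM, from 24, 8 and 6 estimated counts, 4.94 ± 0.43 in log2 below RT4 (edgeR adjusted p = 6.88e-10), itself at a mean of 4.95 TPM. CD6, the immune receptor for ALCAM, was at no more than 1.28 TPM as a line mean. The 39-base exon made up between 64.3% ± 10.6 of the level that spans it in BJ and 79.6% ± 8.51 in SK-Mel 24, and the 6 lines with at least 5 TPM overlapped.

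ICAM1 and VCAM1 are the receptors for leukocyte integrins that inflammatory signals induce on endothelium through the transcription factor NF-kB. In SK-Mel 28 ICAM1 was at 248, 247 and 243 TPM, against 85.0, 96.0 and 296 TPM in SK-Mel 24. The lines overlapped because the third SK-Mel 24 library lay above all others, and the difference of 0.71 ± 0.40 in log2 did not pass (edgeR adjusted p = 0.158). Without that library it was 1.55 with an adjusted p of 0.00197. BJ followed with 18.8, 44.8 and 53.7 TPM. Caco2 had 12.5, 18.9 and 18.1 TPM and HepG2 4.90, 9.15 and 14.0 TPM, an order that turned on the count scale, where HepG2 exceeded Caco2 by 1.05 ± 0.41 in log2 (edgeR adjusted p = 0.0303) and did not pass as different from BJ. Without mitochondrial transcripts HepG2 was at 21.0 ± 4.50 TPM and Caco2 at 17.3 ± 3.72. A549, RT4, U2-OS and U251 were all below 1.44 TPM in every library. A single transcript of 532 codons carried at least 97.0% of the level, as a line mean, in the lines above 5 TPM.

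VCAM1 was nearly absent from these libraries. It had 0 estimated counts in 16 of 27 libraries, 1 to 6 in 10, and 49 in the third SK-Mel 24 library. A count of 0 allows up to 3 counts, or between 0.0921 and 0.192 in CPM at the depths of these libraries, for counting error only. The level was 0.0979, 0.140 and 1.41 TPM in SK-Mel 24, so the library that was highest for ICAM1 was also the highest for VCAM1. The highest library of any other line was in BJ, at 0.0750 TPM.

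That library was also set apart in 22 genes listed as NF-kB responses, of which 21 had a single gene entry. Among the 19 that reached 1 TPM in SK-Mel 24, the third library was the highest of the line in 18, and it was so for 23.2% of all genes at that level. Another library that led its line on the list was the second of RT4, the highest in 13 of 16 list genes and in 44.7% of all genes. Its ICAM1 level was 1.44 TPM, against 0.405 and 0.564 TPM in the others of RT4. The first U251 library was the highest of its line in 10 of 16 list genes and in 23.0% of all genes. In U2-OS the first library was so in 9 of 15 and in 36.3%. ICAM1 was near the floor in both lines, at 0.185, 0.0846 and 0.355 TPM in U251 and 0.346, 0.280 and 0.101 TPM in U2-OS. The chemokine CXCL8 was at 443, 756 and 2436 TPM in SK-Mel 24, and the cytokine IL1B was at 113, 132 and 727 TPM. ICAM1 did not go with most of the list between the melanoma lines. Of the 19 list genes tested, 14 were lower in SK-Mel 28 and 1, PTGS2, was higher, where 16.5% of all genes were lower and 15.5% higher. The list had a median log2 fold change of -2.14, where the median of all genes tested was 0. ICAM1 had the other sign (0.71 ± 0.40, not passing). TNFAIP3 lay on the same side as ICAM1, at 15.0, 20.9 and 19.8 TPM in SK-Mel 28 and 4.87, 8.44 and 19.0 TPM in SK-Mel 24. The mean of REL was also higher in SK-Mel 28, at 3.83 against 2.74 TPM. NFKB1, a subunit of the factor, was at 58.4, 70.1 and 84.5 TPM in SK-Mel 24, against 16.0, 15.5 and 15.1 TPM in SK-Mel 28. TRAF1, a signalling adaptor and itself a known NF-kB target, did not pass, at -0.46 ± 0.33 (edgeR adjusted p = 0.267). The part of this response in the ICAM1 levels was not tested.

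**Figure D2:**
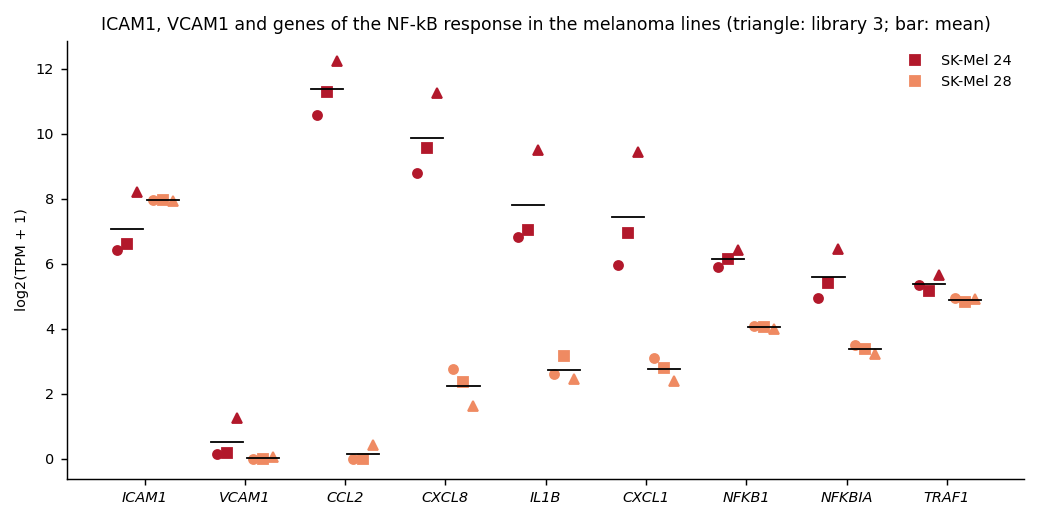
Level of ICAM1, VCAM1 and 7 genes of the NF-kB response as log2(TPM + 1) (vertical axis) in the SK-Mel 24 and SK-Mel 28 libraries; symbols are libraries 1, 2 and 3 (circle, square, triangle) and bars are means of 3. The third SK-Mel 24 library is the highest of its line for each gene drawn, and ICAM1 in SK-Mel 28 stays near 246 TPM where the chemokine genes are low.

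The promoters of both genes hold matches to the short motif GGNNNTTCC, a core form of the NF-kB site, searched on both strands of the 300 bases from 250 before to 50 after the RefSeq start (GRCh38.p14). The sites are printed, with the match in capitals, because ICAM1 and VCAM1 were highest in the same library. They lie at chr19:10270924-10270952 for ICAM1 and at chr1:100719670-100719698 and chr1:100719513-100719541 for VCAM1, the first 186 and the second 62 bases upstream and the third farther out. All are printed on the plus strand, on which the third matches only as its reverse complement.
ICAM1 site: gctttagcttGGAAATTCCggagctgaag
VCAM1 proximal site: tccccttgaaGGGATTTCCctccgcctct
VCAM1 distal site: tcgaagatgaGGAAAAGCCtgtattttat

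Of 35116 promoters of that length, 20.1% hold the motif. MCAM had 1 match just downstream of its start, and the windows of ALCAM, L1CAM, CADM4 and BCAM had 0. A match describes the letters and is not evidence of binding.

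NCAM1, or CD56, mediates adhesion between neural cells and is carried by melanomas and gliomas as well. SK-Mel 24 had 42.8, 44.6 and 43.3 TPM of it, with U2-OS at 46.9, 42.2 and 21.3 TPM and U251 at 26.1, 28.7 and 23.4 TPM. SK-Mel 28 had 11.5, 9.28 and 10.7 TPM, below all libraries of those 3 lines. The 5 other lines were at or below 0.673 TPM. Of these, BJ still had 27, 29 and 29 estimated counts of NCAM1, above A549 by 2.86 ± 0.51 in log2 (edgeR adjusted p = 3.66e-05). On the count scale the top neighbours did not pass as different (SK-Mel 24 over U251, 0.48 ± 0.30 in log2, edgeR adjusted p = 0.202), whereas U2-OS exceeded SK-Mel 28 by 1.51 ± 0.31 (adjusted p = 0.000168). The third U2-OS library was the lowest of its line for NCAM1, and it was so for 6 of 9 members. ST8SIA2 and ST8SIA4, which add polysialic acid to NCAM1, were at no more than 1.88 and 14.9 TPM as line means. ST8SIA4 was at 8.18 ± 1.52 TPM in SK-Mel 24 and 0.0907 ± 0.0294 TPM in U2-OS, lines with like levels of NCAM1.

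The forms of NCAM1 also differed by line, as estimated by kallisto from reads shared among transcripts. The 30-base exon was in 32.0%, 45.2% and 36.9% of the NCAM1 level spanning it in SK-Mel 24, and in 46.4%, 48.5% and 47.8% in SK-Mel 28. It rose to 59.7%, 65.7% and 56.9% in U2-OS and to 71.7%, 72.7% and 70.2% in U251. The 4 lines did not overlap, although an exact permutation test of 3 libraries against 3 cannot give a two-sided p under 0.1. The glioblastoma line had the largest share of the exon. Transcripts with the short end of the GPI-anchored form held 18.6%, 28.7% and 23.4% of the ends in SK-Mel 24 and 1.05%, 8.42% and 2.45% in U251. SK-Mel 28 (9.83%, 17.8% and 9.42%) and U2-OS (5.48%, 12.3% and 16.1%) overlapped each other, and U2-OS also overlapped U251. The SK-Mel 24 libraries were thus the highest and those of SK-Mel 28 lay above those of U251, while U2-OS could not be placed between the 2.

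**Figure D3:**
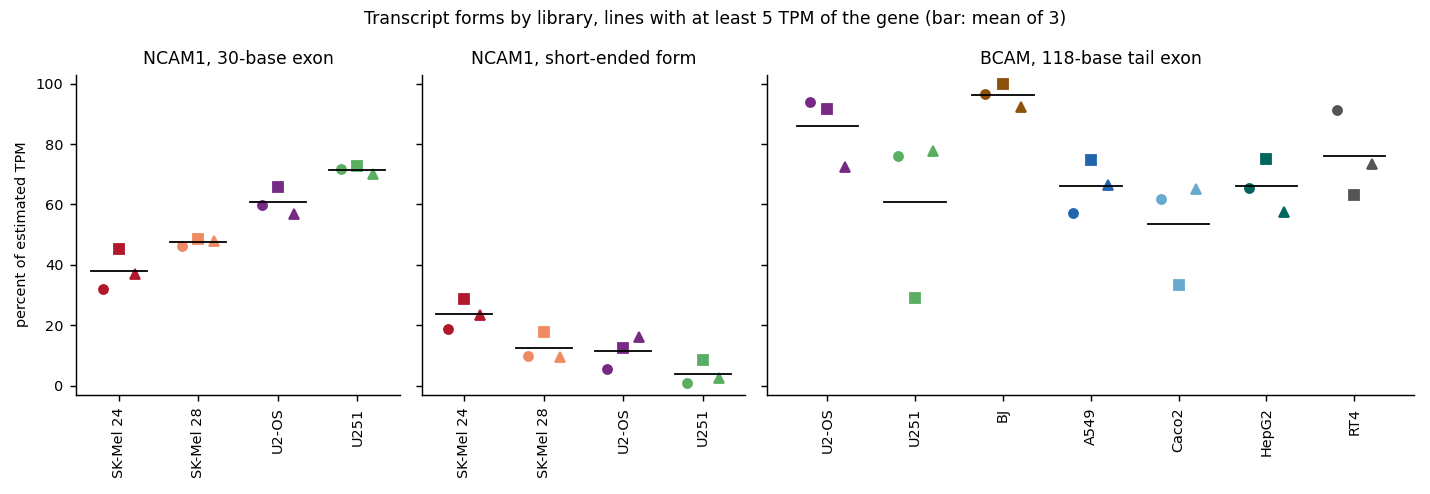
Percent of the estimated TPM that holds the NCAM1 30-base exon, that ends in the short NCAM1 form, or that holds the BCAM tail exon (vertical axis), by line, for lines with at least 5 TPM; symbols are the 3 libraries and bars their mean. The NCAM1 exon goes from 38.0% in SK-Mel 24 to 71.5% in U251, while the BCAM shares scatter widely within U251, Caco2 and RT4.

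L1CAM guides axons and marks invasive tumours, and its level was highest in the fibroblast line. It was at 168, 160.3 and 162 TPM in BJ, above all other libraries. U251 had 83.7, 57.1 and 69.8 TPM, SK-Mel 28 had 78.6, 39.8 and 66.2 TPM, U2-OS had 89.0, 64.2 and 35.1 TPM and SK-Mel 24 had 38.4, 31.5 and 33.5 TPM. BJ exceeded U251 by 1.48 ± 0.46 in log2 (edgeR adjusted p = 0.00946), while no step among the next 4 lines passed. Caco2, at 6.13, 27.1 and 17.5 TPM, and A549, at 14.0, 9.81 and 2.84 TPM, varied several-fold between their own libraries. HepG2 and RT4 were below 1 TPM.

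In every line with at least 5 TPM the leading L1CAM transcript had 1248 codons and lacks both short exons. The 12-base exon was in at most 1.36% of the spanning level as a line mean. The 15-base exon was in 0.944% ± 0.229 in SK-Mel 28 and 12.6% ± 2.32 in A549, the line with the lowest L1CAM of these 7, and reached 13.7% in the third SK-Mel 24 library against 0.940% and 0.421% in the others of that line. U251, of glial origin, was at 3.67% ± 4.03. The form without the neuronal exons led in the brain line as in the others.

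CADM1 and CADM4 are nectin-like molecules that bind themselves and related family members, and CADM1 is known as a tumour suppressor of the lung. CADM4 differed widely between the melanoma lines. SK-Mel 24 had 303, 377 and 304 TPM of it, SK-Mel 28 only 3.44, 1.51 and 1.67 TPM. U2-OS came next at 104, 98.8 and 73.6 TPM, 1.94 ± 0.22 in log2 below SK-Mel 24 (edgeR adjusted p = 6.99e-08), just short of the 4-fold needed for an enriched call. A549, RT4, Caco2, U251 and HepG2 lay between 3.89 and 16.5 TPM in every library, and BJ was at 2.22, 4.46 and 2.46 TPM. On the count scale HepG2 exceeded A549 by 0.93 ± 0.22 in log2 (edgeR adjusted p = 0.000688), and it also passed above RT4 (0.90), Caco2 (1.24) and U251 (1.88). Without mitochondrial transcripts HepG2 was at 17.9 ± 0.560 TPM and A549 at 16.1 ± 0.449. All 9 lines had at least 1 TPM of CADM4. A single transcript of 388 codons carried 87.5% ± 1.41 of the level in SK-Mel 24.

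CADM1 was at 146, 152 and 164 TPM in SK-Mel 24, ahead of SK-Mel 28 with 95.3, 80.4 and 82.997 TPM. Caco2 had 46.0, 43.5 and 121 TPM and U2-OS had 70.4, 61.7 and 34.3 TPM. The difference between the melanoma lines missed the test at -0.83 ± 0.35 (edgeR adjusted p = 0.0548), though their libraries did not overlap. A549 was at 32.0, 20.0 and 10.5 TPM, while U251 and BJ lay between 8.49 and 14.8 TPM. RT4 was close to empty, with 4, 3 and 0 estimated counts, 6.13 ± 0.60 in log2 below U251 (adjusted p = 3.67e-09).

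CADM1 values need the transcript beside them. Its leading entry in most lines was a retained intron model of 1112 bases without a coding sequence, which took 54.6% ± 5.56 of the level in SK-Mel 24. HepG2 had a CADM1 level of 7.92, 23.0 and 17.5 TPM, but the make-up was unlike any other line. Transcripts that hold the last coding exon of the full-length model took 98.7% and 96.9% of it in the first 2 libraries and all of it in the third, and those that hold the first coding exon took 8.52%, 1.34% and 5.59%. In the 7 other lines with at least 5 TPM, means were between 52.8% and 69.4% for the first coding exon and between 9.37% and 34.6% for the last. Counting protein-coding transcripts only, HepG2 fell to 1.86 TPM, against 65.9 in SK-Mel 24, 43.2 in SK-Mel 28 and 34.8 in Caco2. Most of the HepG2 level was assigned to short non-coding models, 42.0% ± 36.4 to one of 668 bases and 31.9% ± 27.3 to one of 476 bases (SD, n = 3), and the split between them differed widely from library to library.

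**Figure D4:**
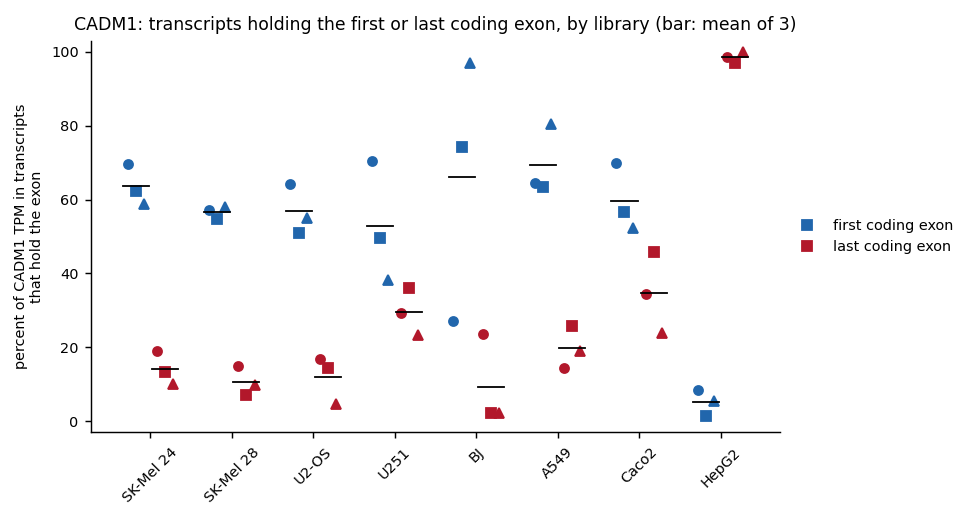
Percent of the CADM1 TPM in transcripts that hold the first (blue) or the last (red) coding exon of the full-length model (vertical axis), for the 8 lines with at least 5 TPM; symbols are the 3 libraries and bars their mean. HepG2 is the reverse of the other lines, with 5.15% for the first coding exon and 98.5% for the last.

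THY1, or CD90, is a small GPI-anchored protein of fibroblasts, neurons and mesenchymal stem cells. It was at 1549, 1389.9 and 1523 TPM in BJ, the highest level of any member in any line. U2-OS had 256, 224 and 250.8 TPM, U251 had 112, 125 and 127 TPM and SK-Mel 24 had 33.2, 25.7 and 30.6 TPM. Each of these 4 lines lay clear of the next, and BJ exceeded U2-OS by 3.28 ± 0.30 in log2, or 9.70-fold (edgeR adjusted p = 1.31e-09). A549 was at 2.33, 1.66 and 3.74 TPM, and Caco2, HepG2, RT4 and SK-Mel 28 were at or below 0.502 TPM. THY1 and MCAM are separated by 95856 bases on chromosome 11 (THY1 at 119417378 to 119424985, GRCh38, both on the minus strand), yet MCAM was highest in SK-Mel 28, where THY1 was nearly absent. A transcript marked for nonsense-mediated decay was assigned 22.9% ± 2.09 of the level in BJ, so protein-coding transcripts amounted to 1110.2 TPM there.

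BCAM, which carries the Lutheran blood group and binds laminin alpha-5, was highest in the liver line on the count scale. It was at 26.7, 82.9 and 64.0 TPM in HepG2, at 113.5, 76.0 and 19.2 TPM in U2-OS and at 52.0, 27.6 and 48.1 TPM in Caco2. Those lines overlapped on this scale, and U2-OS had the highest mean (69.6 ± 47.5 TPM, SD, n = 3, against 57.9 ± 28.6 in HepG2). With mitochondrial transcripts left out of the total, HepG2 was at 126.9 ± 16.9 TPM and U2-OS at 71.8. The edgeR fit, which scales between libraries by TMM, put HepG2 above U2-OS by 2.04 ± 0.51 in log2 (adjusted p for enrichment = 0.00119), and that call was lost without the second HepG2 library (1.90), without the third U2-OS library (1.60), with no low-count filter (1.97) and with length-scaled counts (1.95). No other step in the order of the lines passed. The melanoma lines were lowest, at 4.45, 4.00 and 3.63 TPM in SK-Mel 24 and 3.03, 0.797 and 1.20 TPM in SK-Mel 28.

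LAMA5, the laminin chain bound by BCAM, was at 142 ± 33.4 TPM in Caco2 and 42.2 ± 27.3 in HepG2, and at 3.51 ± 0.237 in SK-Mel 24 and 1.91 ± 0.699 in SK-Mel 28. The BCAM exon of the long tail was in 96.6%, 99.995% and 92.2% of the spanning level in BJ. It was in 57.1%, 74.7% and 66.5% in A549 and in 65.5%, 75.1% and 57.6% in HepG2, below all BJ libraries. U2-OS had 93.8%, 91.5% and 72.4%. Caco2 (61.9%, 33.2% and 65.3%) and U251 (75.9%, 29.1% and 77.7%) varied too widely between libraries to be placed. The leading form with the tail has 628 codons, and the leading form without it has 588.

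Between the melanoma lines, 4 members were lower in SK-Mel 28 and 0 were higher at an adjusted p under 0.05 and at least a 2-fold change (edgeR), where 16.5% of all genes tested were lower and 15.5% higher. The 4 were THY1 (-7.48 ± 0.45 in log2, adjusted p = 1.16e-12), CADM4 (-7.12 ± 0.29, adjusted p = 2.39e-15), NCAM1 (-2.05 ± 0.31, adjusted p = 6.48e-06) and ALCAM (-1.18 ± 0.32, adjusted p = 0.00386). All 3 SK-Mel 28 libraries lay below all 3 of SK-Mel 24 for each of them. The size of the THY1 fold is uncertain, since SK-Mel 28 had 6, 4 and 0 estimated counts of it, against 527, 534 and 524 in SK-Mel 24. At an unadjusted p under 0.05 and any size, 2 members were higher in SK-Mel 28, MCAM and L1CAM, and 5 were lower, with CADM1 added to the 4, where 26.4% of all genes were higher and 26.5% lower. DESeq2 gave 0 higher and 4 lower. The ALCAM call was lost without the second SK-Mel 24 library (-0.99). The median over the 9 members was -1.07, where that of all genes was 0. Melanocyte markers moved the other way, with 5 of 6 higher in SK-Mel 28 and summed levels of 9972 to 15046 TPM against 235 to 298 in SK-Mel 24, and their part in the adhesion differences was not tested.

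**Figure D5:**
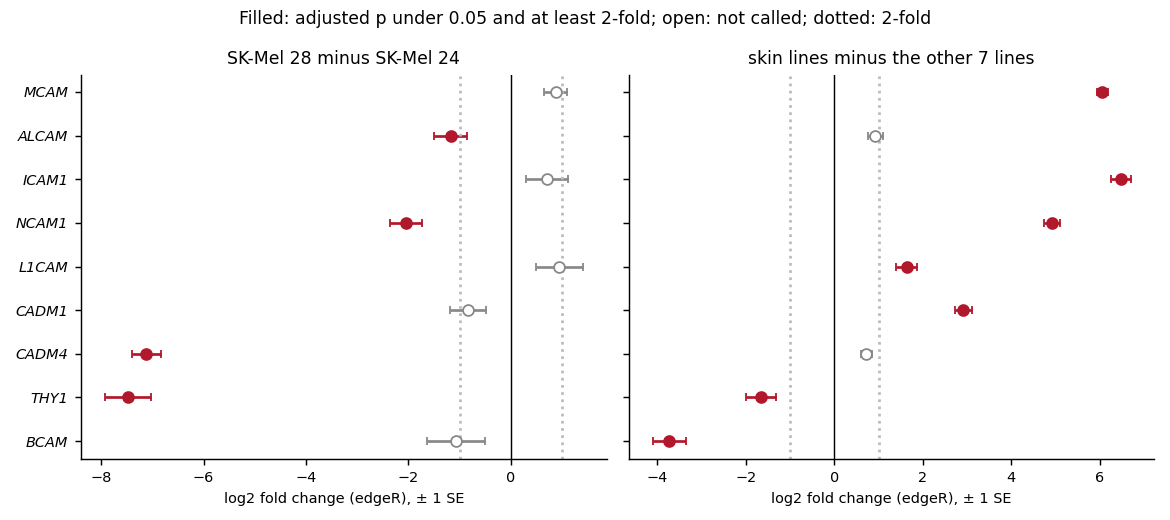
Log2 fold change with 1 SE (horizontal axis, edgeR) for the 9 members tested. The left side is SK-Mel 28 minus SK-Mel 24. The right side is the mean log2 level of both melanoma lines minus the mean log2 level of the 7 other lines. Filled points passed an adjusted p under 0.05 and a 2-fold change, and dotted lines mark 2-fold. THY1 and CADM4 stand far below 0 on the left, and MCAM, ICAM1 and NCAM1 far above 0 on the right.

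Against the mean of the 7 other lines, 5 members were higher and 2 lower in the melanoma lines under the same rule in edgeR. Among all genes, 18% were higher and 12.7% lower. Both means were taken over log2 line levels, so nearly empty lines weigh as much as the others. For ICAM1 these include U2-OS (11, 13 and 3 estimated counts) and U251 (11, 5 and 5). The differences are therefore not folds between average TPM levels. The higher were ICAM1 (6.48 ± 0.22 in log2), MCAM (6.06 ± 0.12), NCAM1 (4.92 ± 0.18), CADM1 (2.92 ± 0.19) and L1CAM (1.64 ± 0.24), with adjusted p-values from 1.22e-22 for MCAM to 2.21e-06 for L1CAM. The lower were BCAM (-3.74 ± 0.37, adjusted p = 4.32e-09) and THY1 (-1.66 ± 0.34, adjusted p = 0.000143). These errors hold the spread between libraries, not between lines, and the levels show where lines overlap. MCAM and ICAM1 line means in both melanoma lines were above all 7 others. NCAM1, L1CAM and THY1 did not separate the groups: U2-OS had more NCAM1 than SK-Mel 28, BJ had more L1CAM than either, and SK-Mel 24 had more THY1 than A549, Caco2, HepG2 and RT4. For CADM1, SK-Mel 28 did not pass against Caco2, HepG2 or U2-OS (edgeR adjusted p = 0.893, 0.154 and 0.0595). The HepG2 counts came mostly from short non-coding models. On protein-coding transcripts only, CADM1 was at 1.86 TPM in HepG2 and 43.2 TPM in SK-Mel 28. The third Caco2 library, at 121 TPM of CADM1, lay above every SK-Mel 28 library. L1CAM lost its call when the number in the library titles was fitted as a covariate (0.76, adjusted p = 0.114). The median over the 9 members was 1.64, where that of all genes was -0.00484.

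Partners and relatives of the members were read from lists. Of 31 other immunoglobulin-type adhesion genes tested, 4 were enriched in a line, 8 were higher and 8 lower in SK-Mel 28 than in SK-Mel 24, and the median difference was -0.12 (all genes tested: 14.7% enriched, 15.5% higher, 16.5% lower, median 0, the background for each list that follows). The enriched were CNTN1 in A549 (362, 391 and 479 TPM, next SK-Mel 28), CADM3 in U2-OS, NECTIN1 in RT4 and CNTN4 in Caco2. CNTN1 is a GPI-anchored contactin of neurons. RT4, the line with the lowest summed level of the 10 members, had NECTIN1, an adherens junction molecule, at 69.2, 103.1 and 90.9 TPM. In SK-Mel 28, the L1 family genes CHL1 and NRCAM were higher than in SK-Mel 24, by 1.67 ± 0.30 and 3.22 ± 0.42 in log2 (edgeR adjusted p = 6.90e-05 and 7.32e-07), while their relative NFASC did not pass (-0.65 ± 0.34, adjusted p = 0.126). CEACAM1 was higher there by 5.07 ± 0.33 (adjusted p = 6.38e-12). Among the 8 lower, CADM3, a relative of CADM1, differed by -6.56 ± 0.53 (adjusted p = 6.48e-10) and NECTIN3, another nectin, by -2.08 ± 0.29 (adjusted p = 1.56e-06).

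Of 25 ligands and counter-receptors tested, 12 were lower and 4 higher in SK-Mel 28, with a median of -1.20, and 6 were enriched in a line. ITGB3, the integrin chain that pairs with the alpha-v chain, was at 170.5, 157 and 206 TPM in SK-Mel 24, against 113.5, 96.1 and 93.2 TPM in SK-Mel 28, and at no more than 22.4 TPM in any library of another line. ITGA4, the alpha chain of the VCAM1 receptor, was at 127, 153 and 106 TPM in SK-Mel 24, against 29.2, 26.2 and 21.6 TPM in SK-Mel 28 (-2.23 ± 0.28, edgeR adjusted p = 4.13e-07), so the receptor chain was present where its ligand was nearly absent. ITGB2, the shared chain of the leukocyte receptors for ICAM1, was at no more than 5.21 TPM in any library. PTPRZ1, a receptor that binds neural adhesion molecules, was enriched in SK-Mel 24.

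Of 23 cytoplasmic partners tested, 5 were lower and 4 higher in SK-Mel 28, with a median of 0.12, counts near the background of 15.5% higher and 16.5% lower, and SDCBP, the syntenin scaffold, was enriched in SK-Mel 28. MSN, or moesin, which ties ICAM-type tails to actin, was between 283 and 458 TPM in every library of BJ, A549, both melanoma lines, U2-OS and U251, and no higher than 1.32 TPM in Caco2, HepG2 and RT4. Of 15 sheddases, their inhibitors and polysialyltransferases, 7 were lower and 1 higher, with a median of -0.78. MMP2, a secreted protease, was at 185, 205 and 241.3 TPM in SK-Mel 24, against 1.39, 2.28 and 2.83 TPM in SK-Mel 28 (-7.01 ± 0.44, edgeR adjusted p = 2.86e-12), on the same side as THY1 and CADM4. ADAM10, which sheds L1CAM and other members, was above 23 TPM in every library outside HepG2.

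Across the line means of log2(TPM + 1), MCAM and NCAM1 were the most alike pair of members (Pearson r = 0.844, n = 9 lines), followed by L1CAM and THY1 (r = 0.744), as a description of lines that share the same normalization and the low HepG2 scale. Among 11492 protein-coding genes with at least 10 TPM in a line, THY1 was most like LAYN (r = 0.988) and the collagen gene COL6A2 (r = 0.962), MCAM most like PREX1 (r = 0.965) and HOXC4 (r = 0.964), and NCAM1 most like GXYLT2 (r = 0.973) and PDLIM3 (r = 0.972). ICAM1 was most like GNPTG (r = 0.936) and the melanocyte-lineage factor PAX3 (r = 0.901), and ALCAM most like ELK3 (r = 0.949) and PALLD (r = 0.948). L1CAM was most like AKAP2 and POFUT2, CADM1 most like UGGT1 and STMN3, CADM4 most like SEM1 and POLR2J and BCAM most like CCDC69 and MATN3, with r between 0.909 for MATN3 and 0.956 for AKAP2. The likeness of VCAM1 to TDRD12 and MAG (r = 0.993 each) rests on SK-Mel 24, since no other line had a VCAM1 mean above 0.0528 TPM.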

How the data were processed

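RNA from 27 libraries of 9 cell lines was quantified by the authors per transcript. Per the file headers each table gives estimated counts, effective length (another unit, used for length-scaled counts) and TPM. Per the submitters' processing notes the tools were CASAVA 1.8 and kallisto 0.43.1 with the build GRCh38, and the sources used here give no role for them beyond those names. Deposited estimated counts and deposited TPM were summed to genes with GENCODE 29. Of 176241 transcripts, 159887 matched, and 16354 (9.28%) did not and were left out. Summed estimated counts were rounded to whole numbers and fitted over all 9 lines with edgeR 4.0.16 (filterByExpr, TMM, robust quasi-likelihood, R 4.3.3), with Benjamini-Hochberg adjustment over 17220 genes. The common biological coefficient of variation was 24.2%. A gene was called at an adjusted p under 0.05 and at least a 2-fold change, and enriched at 4-fold above each other line. TPM were averaged per line, with a pseudocount of 1 for correlations. DESeq2 1.42.0 was an alternative. The fit was checked on simulated data. The named genes were all 10 members, the 2 most alike genes of each, transcripts with at least 20% of a gene at 5 TPM or more, and, of the lists, enriched genes and those with the highest levels. Others named here (CEACAM1, CHL1, NRCAM, ITGA4, ITGB2, LAMA5, ADAM10, NFASC, NECTIN3, ST8SIA2, ST8SIA4, CD6, IL1B, NFKB1, PTGS2, TRAF1, TNFAIP3 and REL) were named with their values already seen. The members and lists were chosen with earlier results of these data known. Line differences share line, medium and library code ranges. Counting by strand is not stated, so reads of genes on opposite strands may not be separated.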

Additional observations from a re-analysis of the deposited data

How the results depend on the processing

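Across 1457 recomputed values, 1422 were rated the same, and 0 fold changes or margins turned sign. For a fold change or margin, the same meant an unchanged sign and call. For a count of members it meant within 1.5 times. Levels and correlations carry no call, and 12 of them moved. Among these, the highest mean TPM of BCAM moved from U2-OS to HepG2 without mitochondrial transcripts. The number of members enriched in a line was 1 without HepG2, and between 1 and 3 when each library was left out in turn (1 without the second HepG2 or the third U2-OS library, 3 without the first SK-Mel 24 or the first U2-OS library). All other counts of members stayed within 1.5 times. Single genes near a threshold changed call: ALCAM passed the 2-fold limit for the melanoma lines against the rest with length-scaled counts (1.07), with the title number as covariate (1.40) and without the third U2-OS library (1.01). CADM4 passed 4-fold enrichment in SK-Mel 24 with length-scaled counts (2.05), without the first SK-Mel 24 library (2.02) and without the first U2-OS library (2.02). Without the first SK-Mel 28 library, CADM1 (-1.06) and BCAM (-1.89) passed as lower there. With no low-count filter VCAM1 was tested too, and it then took the place of BCAM among the 2 enriched members. That call rests on 1 library, since VCAM1 had 3, 6 and 49 estimated counts in SK-Mel 24 and was nearly absent elsewhere. NCAM1 had its highest mean TPM in U2-OS without the third U2-OS library. The cause of these changes was not tested. The number after P in the titles, whose meaning is not stated, was also fitted as a replicate block, an alternative chosen after seeing the data. With it 9 members differed among the lines and 1 was enriched, as BCAM lost that call at 1.98, short of 4-fold. Between the melanoma lines 4 differed, and 6 differed between those and the rest. ALCAM (1.27) passed in the last comparison and L1CAM (0.65) and THY1 (-1.31) did not. Melanoma libraries with the same number had deviations correlated at 0.0682, 0.201 and 0.0761 over genes. These were not all above 0.1, so the number was not taken to pair them, although each library correlated best with its own number, a hint from the data and not from the design. Counts of 24 or fewer in each library limit ALCAM in Caco2, ICAM1 in U2-OS and U251, NCAM1 in A549, Caco2, HepG2 and RT4, THY1 in SK-Mel 28, Caco2, HepG2 and RT4, MCAM and CADM1 in RT4, and VCAM1 in every library but the third of SK-Mel 24, and transcript shares carry no error from kallisto.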
